A study of Austrofundulus limnaeus and Nothobranchius furzeri and Aphyosemion australe with 30 samples.

Results

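The 277 chromatin regions described here, of 68977 consensus peaks of accessible chromatin in the South American killifish (Austrofundulus limnaeus), were each more open in developing embryos than at the other stages. They were chosen by their measured values: a peak entered the set where both libraries from developing embryos lay above all 7 libraries of the other 3 stages, and where the mean of the developing embryos was at least 1 higher, on the log2(value + 1) scale, than the mean of each other stage. Both Dev libraries lay above the other 7 at 3751 peaks, which was 5.44% of all peaks, and the step of 1 kept 7.38% of those. The set is therefore 0.402% of the peaks, and the difference between developing embryos and the other stages is a description of how it was made, with no test.

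The assay was ATAC-seq, where the transposase Tn5 cuts and tags DNA that is not wrapped up in nucleosomes or packed chromatin. The series holds 30 samples from 4 killifish species, of which 14 are labelled South American killifish. Every sample came from dissected whole bodies of untreated wild-type embryos, about 10 embryos pooled per sample and about 25000 nuclei per reaction. Embryos of the development group (Dev) had not entered diapause and showed a heartbeat faster than 60 per minute by the sample label, or than 45 by the protocol, with the eyes not yet pigmented. Pre-diapause embryos (Pre-Dia) carried a Kupffer's vesicle and had 15 to 22 somites. The 2 diapause groups had been arrested for 6 days (Dia 6d) or for 1 month (Dia 1m). By the study's methods the Pre-Dia embryos came from first clutches of young parents, most of which were expected to skip diapause.

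Diapause in killifish is a halt of embryonic development that lets the egg outlast the drying of its pond. A Pre-Dia embryo is still laying down its body segments, whereas a Dev embryo has completed them, has a beating heart and is building its organs. Regions that Tn5 can reach are mostly gene promoters, enhancers and other sites at which regulatory proteins displace nucleosomes, and many distal sites open only in certain cell types and stages. In whole embryos, a wider opening in each cell and a larger number of cells with the site open cannot be told apart. The deposited peaks carry no gene names, and their neighbouring genes, sequence content and motifs were not analysed here, so that each region is given by its peak name and its place on a scaffold of the assembly Austrofundulus_limnaeus-1.0, with start and end as in the authors' table.

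The 9 libraries compared were Dev replicates 1.5 and 2, Pre-Dia replicates 1.5 and 2, Dia 6d replicates 1, 2 and 3, and Dia 1m replicates 2 and 3, as the labels number them. They held 2.99 to 11.4 M reads in peaks, with the fewest in Pre-Dia replicate 1.5, where 1 read is worth 2.74 units. All values are normalized reads, that is, reads in the peak divided by 1 factor per library. The lowest value in each library is that of 1 read, so 0 and 1 read cannot be told apart. A smaller table of 17343 peaks holds 3 more columns, one each labelled Dev, Pre-Dia and Dia 1m, but its Dev column is not a further Dev library. At the 1037 peaks with identical coordinates in both tables it had the same number of reads as Dev replicate 2 at 1033 peaks, and at the others the counts differed by at most 4 reads, so the 2 were counted as 1 sample. The values of Pre-Dia replicate 1 and Dia 1m replicate 1 in that table did not repeat any of the 9 libraries. Pre-Dia replicate 1 was closest to Pre-Dia replicate 1.5, which the rule used (Pearson r = 0.924 across 17066 overlapping peaks, which are not independent replicates). With Pre-Dia replicate 2 its r was 0.727. The labels do not say whether replicates 1 and 1.5 shared embryos.

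In the Dev embryos the set was a group of mostly middling peaks, and in the other stages it was a group of weak ones. Its upper quartile was 152 in Dev replicate 1.5, against 110 over all peaks, and 102 in Dev replicate 2, against 104. The median value over the 277 peaks was 97.1 in Dev replicate 1.5 and 71.7 in Dev replicate 2. It was 27.4 and 33.3 in the Pre-Dia libraries, 26.8, 35.6 and 32.7 in the Dia 6d libraries, and 25.0 and 31.8 in the Dia 1m libraries. Over all peaks the medians lay close to each other, between 59.5 and 63.0 in every library, so a typical member of the set stood above the typical peak only in the Dev libraries. The Dev mean value was 2.25 times the highest mean value of another stage at the median, and between 1.80 and 5.86 times over the whole set.

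**Figure D1:**
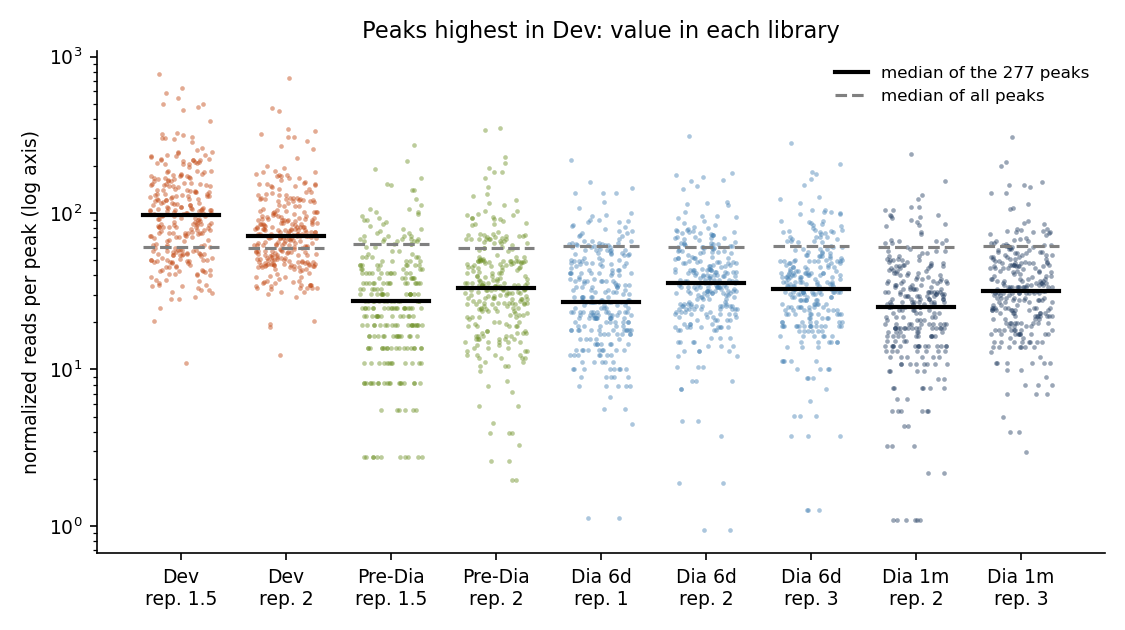
Normalized reads per peak on a log axis for each of the 277 peaks (1 point per peak) in each of the 9 libraries, with the median of the set as a black line and the median of all 68977 peaks as a dashed grey line. The set's median is 97.1 and 71.7 in the Dev libraries and 25.0 to 35.6 in the other 7, while the median of all peaks is near 60 throughout.

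The name given to these regions, open only in development, says more than the values do. In 234 of the 277 peaks (84.5%) every library had more than 3 reads, so reads were present outside Dev, at lower values. The background of reads outside peaks was not measured, so whether these sites were open outside Dev was not tested. At the other 43 peaks (15.5%) at least 1 library had 3 or fewer reads, which held for 2.64% of all peaks. The 2 Dev libraries also differed from each other. Dev replicate 1.5 lay above Dev replicate 2 at 212 of the 277 peaks (76.5%) with a median difference of 0.32 on the log2 scale, against 50.2% of all peaks and a median of 0.0027. Membership depended on both: without Dev replicate 2 the rule took 865 peaks, 245 of them in the set, and without Dev replicate 1.5 319 peaks, 152 of them in the set. The set sits close to its threshold as well. The margin, meaning the Dev mean minus the highest other stage mean on the log2 scale, had a median of 1.16, and it was under 1.2 at 163 peaks, from 1.2 to under 1.5 at 83, from 1.5 to under 2 at 23 and at least 2 at 8.

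The peaks on either side of the threshold looked alike. Just inside it were peak_38147, peak_11549, peak_13122, peak_52991 and peak_17632, with margins of 1.0004 to 1.0034. Just outside were peak_38454, peak_2565, peak_40587, peak_18126 and peak_4429, with margins of 0.9966 to 0.9997 and both Dev libraries above the other 7. Of the first kind, peak_11549 (NW_013952461.1:1237534-1237794) held 48.5 and 46.3 normalized reads in the Dev libraries, 19.2 and 13.7 in Pre-Dia, 27.9, 25.3 and 17.6 in Dia 6d, and 18.5 and 17.9 in Dia 1m. Of the second, peak_2565 (NW_013952409.1:5541093-5541603) had 103 and 82.5 in Dev, 38.4 and 35.9 in Pre-Dia, 40.2, 49.6 and 47.8 in Dia 6d, and 39.1 and 37.8 in Dia 1m. In both, the Dev libraries were about as far from the rest as in the other, and the rule separates them by less than 0.01.

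The 10 peaks with the largest margins, from 1.94 to 2.68, were 199 to 572 bp wide and weak outside Dev. The first 2 are neighbours on a short stretch of NW_013953167.1. The peak with the largest margin of all, peak_49001 (NW_013953167.1:179591-180127), held 53.6 and 60.8 normalized reads in the Dev libraries, 8.22 and 7.19 in Pre-Dia, 20.1, 3.75 and 5.03 in Dia 6d, and 2.17 and 24.9 in Dia 1m. Both Dev libraries were close together and near the median of all peaks, whereas the libraries within each diapause group differed from each other several-fold. Next to it, peak_49000 (NW_013953167.1:179125-179437) had 32.4 and 44.9 in Dev, 8.22 and 3.92 in Pre-Dia, 7.82, 7.49 and 5.03 in Dia 6d, and 1.09 and 7.96 in Dia 1m. The lowest of these values is 1 read.

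Other peaks of the first 10 were low in all 7 libraries outside Dev, with a different stage at the bottom. At peak_1563 (NW_013952405.1:8592874-8593150) the Dev libraries had 129 and 47.0, Pre-Dia 2.74 and 1.96, Dia 6d 7.82, 15.0 and 11.3, and Dia 1m 15.2 and 14.9. At peak_6824 (NW_013952429.1:270617-270871) the Dev libraries had 70.7 and 45.6, Pre-Dia 2.74 and 2.61, Dia 6d 10.0, 13.1 and 15.1, and Dia 1m 7.60 and 10.9. In both, the Pre-Dia libraries had 1 to 4 reads and lay below every diapause library, and the diapause libraries lay below both Dev libraries. At peak_14048 (NW_013952479.1:1234528-1234726) the Dev libraries were nearly equal at 59.6 and 57.2, against 8.22 and 15.7 in Pre-Dia, 7.82, 15.0 and 18.9 in Dia 6d, and 10.9 and 12.9 in Dia 1m. Here the 3 other stages overlapped and were all well below Dev.

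The remaining 5 of the first 10 were peak_64974, peak_21358, peak_1564, peak_7600 and peak_7597. The most uneven of them was peak_64974 (NW_013956703.1:42-495), the only peak on its scaffold, with 122 and 84.7 in Dev, 30.2 and 12.4 in Pre-Dia, 1.12, 12.2 and 3.77 in Dia 6d, and 1.09 and 34.8 in Dia 1m. Its lowest Dia 6d and Dia 1m values are 1 read each, although other libraries of the same groups had 13 and 35 reads. A spread of more than 10-fold among the 7 libraries outside Dev occurred at 16 members of the set (5.78%), against 1.52% of all peaks. The libraries at the low end of such a spread did not always belong to the same stage.

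**Figure D2:**
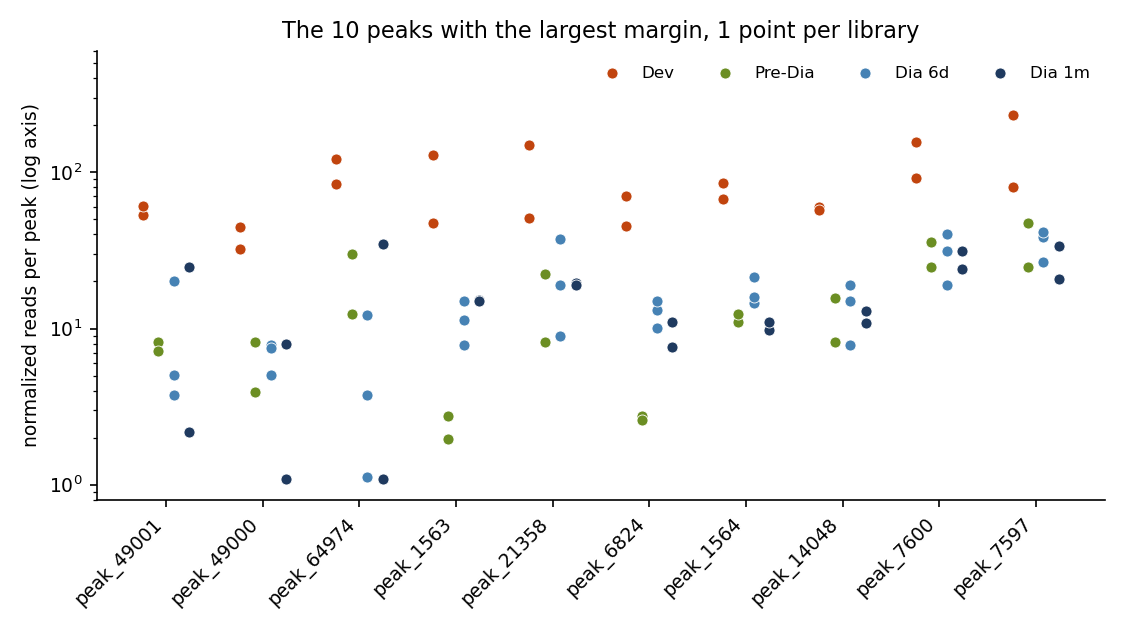
Normalized reads per peak on a log axis for the 10 peaks with the largest margins, with 1 point per library coloured by stage and the stages in the order Dev, Pre-Dia, Dia 6d, Dia 1m. At every peak both Dev points lie above the other 7, and at peak_49001 and peak_64974 the diapause points spread from 2.17 to 24.9 and from 1.09 to 34.8.

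The 5 members with the highest Dev values were wide peaks (777 to 1245 bp) that were also open in the other stages. The strongest, peak_2483 (NW_013952409.1:3077966-3078742), had 626 and 727 in Dev, 274 and 350.3 in Pre-Dia, 218, 310.0 and 282 in Dia 6d, and 240.0 and 306 in Dia 1m. Its lowest library was thus far above the median of all peaks. At peak_21004 (NW_013952550.1:1219093-1220179) the Dev libraries had 779 and 346, Pre-Dia 217 and 210.4, Dia 6d 145, 149.8 and 205, and Dia 1m 161 and 134. At peak_60650 (NW_013954457.1:28360-29193) the Dev libraries had 476 and 449, Pre-Dia 139.8 and 184, Dia 6d 108, 170.4 and 89.3, and Dia 1m 130.3 and 212. The 2 Dev libraries agreed closely at peak_60650 and differed by more than 2-fold at peak_21004, and the 3 other stages overlapped at peak_60650, whereas at peak_21004 both Pre-Dia libraries lay above all diapause libraries. The other members of this group were peak_27328 and peak_39588, with margins of 1.14 and 1.21.

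The set covered much the same widths as the other peaks. The median width was 384 bp in the set and 379 bp over all peaks, with ranges of 150 to 1245 bp and 98 to 3518 bp. Wider peaks had more reads in Dev, where values are not divided by width, with a Spearman rho between width and Dev mean value of 0.748 across the 277 peaks and 0.750 across all peaks; the points share libraries and are not independent.

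Between the stages other than Dev, which the rule did not compare with each other, few of these peaks passed the threshold of a test. The rule did require each of these stages to lie below Dev, so a peak high in any of them could not enter. The part of the rule in the shares below was not tested. The comparison asked whether sites that are highest in Dev also differ between Pre-Dia and the diapause groups, or between the diapause groups. It was made with limma on log2(value + 1) across all peaks, with Benjamini-Hochberg adjustment and an adjusted p under 0.05. The Pre-Dia embryos were still forming somites, and most were expected to skip diapause. Entry into diapause, developmental progress and parentage therefore cannot be told apart in the contrasts with Pre-Dia. Each library is labelled as its own sample of pooled embryos, and nothing says whether samples shared a pool or a spawning. The p-values therefore measure the spread between these libraries. In Dia 6d against Pre-Dia, 2 of the 277 peaks were higher and 2 lower, which is 0.722% each way, while 3.45% of all peaks were higher and 1.39% lower. In Dia 1m against Pre-Dia none passed in either direction by limma, while 2.62% of all peaks were higher and 0.983% lower (1809 and 678 peaks, and 989 and 601 after quantile normalization), and in Dia 1m against Dia 6d none passed either, where 0.0275% of all peaks were higher and 0.0203% lower.

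Without adjustment a larger number passed. At an unadjusted p under 0.05 by limma, 22 of the 277 peaks (7.94%) passed in Dia 6d against Pre-Dia, 18 (6.50%) in Dia 1m against Pre-Dia and 12 (4.33%) in Dia 1m against Dia 6d, beside 20.8%, 18.9% and 7.68% of all peaks. In the libraries compared the set's median values were 25.0 to 35.6, against about 60 over all peaks, and their part in these shares was not tested. With reads in place of log2 values, and without Dia 1m replicate 3, edgeR called 2 members lower in Dia 1m than in Pre-Dia (0.418% of all peaks lower) and 1 lower in Dia 1m than in Dia 6d (0.280%), and DESeq2 called none of the 163 and 145 members to which it gave an adjusted p (0.396% and 0.117% of the peaks it tested were lower).

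Both members that were higher in Dia 6d than in Pre-Dia had their lowest stage mean in Pre-Dia. At peak_12194 (NW_013952467.1:349547-349896) the Dia 6d libraries had 20.1, 33.7 and 22.6 normalized reads and the Pre-Dia libraries 5.48 and 3.27, with 97.1 and 39.8 in Dev and 11.9 and 21.9 in Dia 1m. The groups did not overlap, and the difference of Dia 6d minus Pre-Dia was 2.30 on the log2 scale (SE 0.62, adjusted p = 0.0208 by limma). At peak_6825 (NW_013952429.1:272628-273313), the next peak of the set after peak_6824, the Dia 6d libraries had 77.0, 84.3 and 123 and the Pre-Dia libraries 27.4 and 49.0, with 387 and 184 in Dev and 45.6 and 62.6 in Dia 1m. The difference was 1.32 (SE 0.36, adjusted p = 0.0229 by limma), and Dev remained the highest stage at both peaks by the rule.

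Both members that were lower in Dia 6d than in Pre-Dia had their lowest values at 6 days of diapause, with Dia 1m libraries above them. At peak_11741 (NW_013952463.1:1012396-1012600) the Dia 6d libraries had 10.0, 1.87 and 3.77 and the Pre-Dia libraries 19.2 and 43.1, with 70.7 and 81.1 in Dev and 14.1 and 18.9 in Dia 1m. The difference of Dia 6d minus Pre-Dia was -2.49 (SE 0.67, adjusted p = 0.0221 by limma), and the lowest value stands for 2 reads. At peak_31815 (NW_013952699.1:575950-576529) the Dia 6d libraries had 74.8, 31.8 and 31.4 and the Pre-Dia libraries 107 and 84.9, with 299.7 and 174 in Dev and 90.1 and 107 in Dia 1m. The difference was -1.16 (SE 0.36, adjusted p = 0.0470 by limma). Single libraries decided this count of 4: it was 0 when Dia 6d replicate 2 was left out, 1 when Dia 6d replicate 3 or Dev replicate 1.5 was, 2 when Dev replicate 2 or Pre-Dia replicate 1.5 was, and 19 (6.86%) when Pre-Dia replicate 2 was, a setting in which 11.2% of all peaks passed. In Dia 1m against Pre-Dia, 9 members (3.25%) and 10.0% of all peaks passed in the absence of Pre-Dia replicate 2. In the absence of Dia 1m replicate 3, 1 member (0.361%) and 0.858% of all peaks passed there, and 2 members (0.722%) and 0.331% of all peaks passed in Dia 1m against Dia 6d.

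The 277 peaks leaned towards lower values at 1 month than at 6 days of diapause. The rule required both stage means to be low, and these rest on 2 and 3 libraries. The part of the rule in this lean, and in the ranking of stages below, was not tested. The median difference of Dia 1m minus Dia 6d was -0.19 on the log2 scale, and Dia 1m was below Dia 6d at 192 peaks (69.3%), against a median of 0.0014 and 49.9% over all peaks. The sign of the median was the same under every alternative, from -0.42 to -0.017, but these were not separate checks. The lowest values came from fits with Dia 1m replicate 2 alone: -0.42 by DESeq2, -0.40 by edgeR and -0.35 by limma. The lean rested on that 1 library: without it the median was -0.017 and Dia 1m was below at 145 peaks (52.3%), against 47.3% of all peaks. Of the 3 stages, Dia 6d was the highest at 133 members (48.0%), against 30.2% of all peaks, Pre-Dia at 92 (33.2%), against 38.0%, and Dia 1m at 52 (18.8%), against 31.8%. The order of Dia 6d and Pre-Dia was not settled, since the median of their difference was 0.086, -0.043 after quantile normalization and -0.081 when Pre-Dia replicate 1.5 was left out.

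In the contrasts the rule itself used, 14 members were past the threshold in all 3 of Dev against Pre-Dia, Dev against Dia 6d and Dev against Dia 1m, and these 14 were also all the peaks in the table that were (0.0203%). Nothing is read from this count, which was 0 when Dev replicate 1.5 was left out, 3 when Dev replicate 2 was, 67 when Pre-Dia replicate 2 was, 2 when Dia 6d replicate 1 was, and 5 when Dia 6d replicate 2 or Dia 1m replicate 2 was.

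The members were spread over many scaffolds but also sat close to each other in places, which the rule did not ask for. They fell on 167 of the 6816 scaffolds that hold peaks, and 121 of these had a single member. The largest number was 14 of 192 peaks on NW_013952409.1, then 11 of 335 on NW_013952405.1, 8 of 133 on NW_013952433.1 and 7 of 66 on NW_013952555.1. Another member lay within 10 kb of 29 members (10.5%) and within 50 kb of 55 (19.9%), whereas 0.612% and 2.24% of all peaks had a member that near. Any other peak lay within 10 kb of 72.9% of the members and of 79.3% of all peaks.

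Where members were no more than 50 kb apart, they formed 8 stretches of 3 or more, with 35 members among 50 peaks. The members are high in Dev by the rule. All 15 other peaks in these stretches had a Dev mean above the mean of the other 3 stages. Of all peaks outside the set, 50.2% did. At 3 of the 15 both Dev libraries lay above the other 7, against 5.06% of all peaks outside the set. The stretches were drawn around members and neighbouring peaks are not independent, so these counts are a description. The window of 20 kb with the most members was on NW_013952405.1, where peak_1561, peak_1562, peak_1563, peak_1564 and peak_1565 were the only 5 peaks in 11.9 kb (8589023-8600971) and were all members. Its outer peak_1561 (NW_013952405.1:8589023-8589323) had 167 and 91.2 in Dev, 65.8 and 41.2 in Pre-Dia, 65.9, 76.8 and 36.5 in Dia 6d, and 19.5 and 32.8 in Dia 1m. At the other end peak_1565 (NW_013952405.1:8600607-8600971) had 140.5 and 54.3 in Dev, 13.7 and 47.7 in Pre-Dia, 25.7, 34.7 and 31.4 in Dia 6d, and 20.6 and 20.9 in Dia 1m. The 5 peaks shared the high Dev values but not their lowest stage, which was Dia 1m at peak_1561 and Pre-Dia at peak_1563.

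The window of 20 kb with the next most members lay on NW_013952550.1, in a stretch of 47.1 kb (1191545-1238664) with 6 members among 9 peaks. It held broad, strong peaks next to narrow, weak ones. The broad peak_21000 (NW_013952550.1:1206071-1207010) had 455 and 225 in Dev, 90.5 and 53.6 in Pre-Dia, 100.5, 77.7 and 75.4 in Dia 6d, and 57.6 and 67.6 in Dia 1m. The narrower peak_21002 (NW_013952550.1:1213704-1214066) had 154 and 52.8 in Dev, 43.9 and 17.0 in Pre-Dia, 24.6, 33.7 and 40.2 in Dia 6d, and 30.4 and 18.9 in Dia 1m. The adjoining peak_21003 (NW_013952550.1:1217911-1218958) had 501 and 288 in Dev, 151 and 167 in Pre-Dia, 134, 142 and 152 in Dia 6d, and 105 and 134 in Dia 1m. At all 3, as at peak_21004 beside them, Dev replicate 1.5 was well above Dev replicate 2. The 3 peaks of this stretch outside the set had a median of 1.18 for Dev minus the mean of the other stages on the log2 scale.

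Of the remaining stretches, one on NW_013952555.1 had 6 members among 9 peaks in 55.6 kb (971576-1027143), with margins of 1.18 to 1.83. One on NW_013952433.1 had 6 among 10 in 115 kb (1525757-1641256), with margins of 1.08 to 1.29. The stretch of peak_49000 and peak_49001 also held peak_49002, which is not a member, and peak_49003, which is. At peak_49003 (NW_013953167.1:185414-185816) the Dev libraries had 57.9 and 64.4, Pre-Dia 52.1 and 5.88, Dia 6d 19.0, 0.937 and 1.26, and Dia 1m 1.09 and 3.98. Its 2 Pre-Dia libraries lay far apart, and 3 of the diapause libraries were at the value of 1 read. The same libraries were high and low at peak_49002 (NW_013953167.1:184410-185084), with 81.7 and 120.2 in Dev, 85.0 and 13.1 in Pre-Dia, 36.8, 4.68 and 7.54 in Dia 6d, and 3.26 and 12.9 in Dia 1m; peak_49002 and peak_49003 were named after their values were seen.

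**Figure D3:**
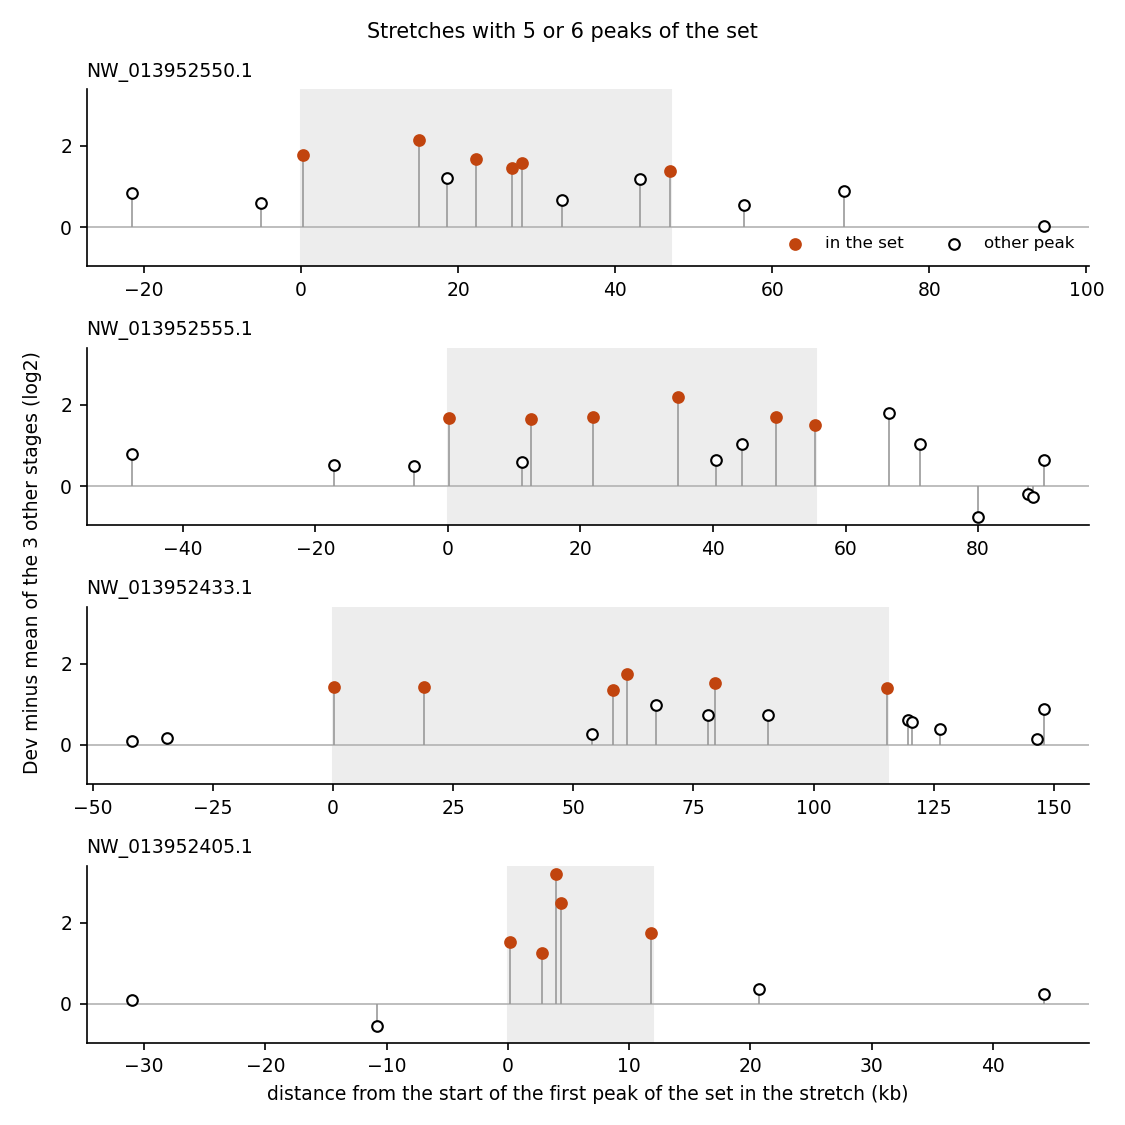
The Dev mean minus the mean of the 3 other stages (log2) at every peak in and within 50 kb of the 4 stretches with 5 or 6 members, against the distance in kb from the first member, with members filled, other peaks open and the stretch shaded. All peaks inside the shading lie above 0, and those outside it range from -0.76 to 1.80.

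Peaks near the set that are not in it leaned the same way. The nearest peak outside the set was found on the same scaffold for 265 of the 277 members, at a median gap of 4567 bp, and these were 250 different peaks. Their Dev mean minus the mean of the other 3 stages had a median of 0.49 on the log2 scale, 0.57 with Dev replicate 1.5 alone and 0.41 with Dev replicate 2 alone. It was above 0 at 206 of them (82.4%), against 50.2% of all 68700 peaks outside the set, whose median was 0.0023. Among these nearest peaks the median did not decline steadily with the gap: it was 0.58 within 2 kb, 0.46 from 2 to 10 kb, 0.45 from 10 to 50 kb and 0.62 beyond 50 kb, the last over 11 peaks. Over all peaks outside the set it was smaller at larger distances. They had a median of 0.53 within 2 kb of a member (80 peaks), 0.39 from 2 to 10 kb (313), 0.26 from 10 to 50 kb (1100), 0.23 from 50 to 200 kb (2702) and 0.11 farther away on the same scaffold (9278). On scaffolds without a member it was -0.029 (55227 peaks). The lowest and highest groups kept this order with either Dev library alone, at 0.52 in both within 2 kb, against -0.054 with Dev replicate 1.5 and 0.0037 with Dev replicate 2 on scaffolds without a member. These peaks share their libraries with the set and neighbouring peaks are not independent, so the values are given with no test.

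**Figure D4:**
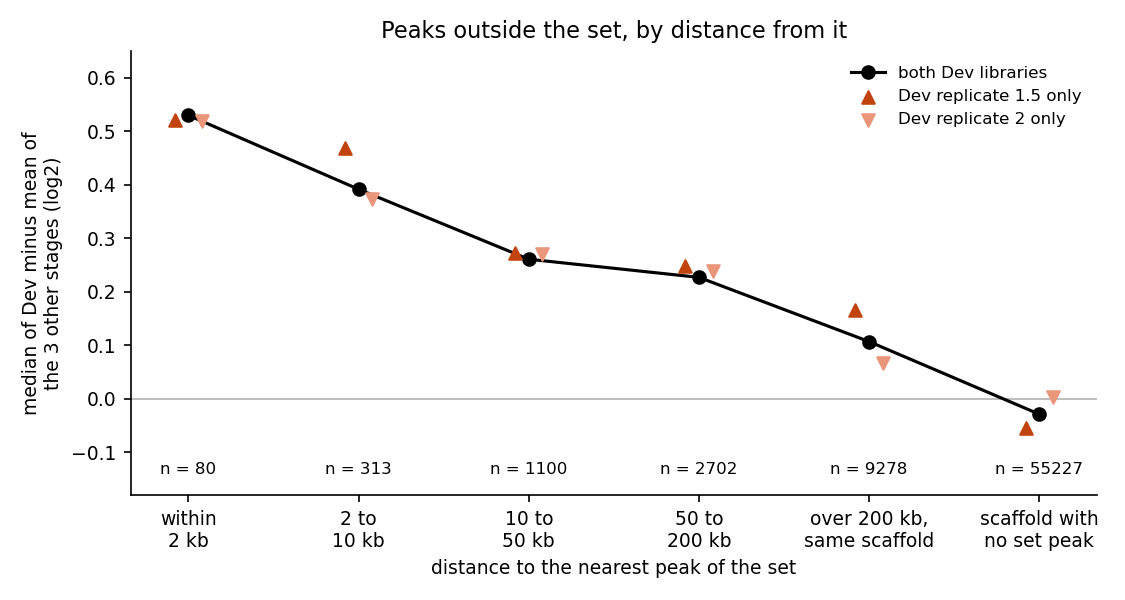
Median of the Dev mean minus the mean of the 3 other stages (log2) over peaks outside the set, by distance to the nearest member, with both Dev libraries (black) or each alone (triangles) and the number of peaks under each group. The black points decline from 0.53 within 2 kb to 0.11 beyond 200 kb on the same scaffold, and to -0.029 on scaffolds without a member.

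On the scaffolds richest in members the lean reached most peaks. On NW_013952409.1 the 178 peaks outside the set had a median of 0.31, and 71.3% of them were above 0. Of all peaks outside the set, 50.2% were above 0. Both Dev libraries lay above the other 7 at 25.0% of the scaffold's 192 peaks, against 5.44% of all peaks. That share counts its 14 members, for which the rule required it. On NW_013952433.1 the 125 others had a median of 0.30 and 76.8% were above 0. The lean was weaker on NW_013952405.1, which had 11 members. Its 324 others had a median of 0.17 and 64.5% were above 0. Both Dev libraries lay above the other 7 at 10.4% of its peaks, members included. An exception was NW_013952538.1, where 5 of 89 peaks were members and the 84 others had a median of 0.045.

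A lean of near neighbours was not particular to Dev, as far as the same rule applied to each other stage shows. The rule took 144 peaks for Pre-Dia, 51 for Dia 6d and 345 for Dia 1m. The nearest peaks outside each set had a median difference, stage minus the mean of the others, of 0.49 for Dev, 0.31 for Pre-Dia, 0.38 for Dia 6d and 0.17 for Dia 1m. The share of set peaks with another set peak within 10 kb was 10.5% for Dev, 1.39% for Pre-Dia, 17.6% for Dia 6d and 2.90% for Dia 1m. By share Dev was thus above Pre-Dia and Dia 1m and below Dia 6d, whose set is the smallest and rests on 3 libraries. By number Dev had 29 such peaks and Dia 6d had 9. Such shares can depend on the size of the set, and the differences between stages were not tested.

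The smaller table adds a Pre-Dia and a Dia 1m library that the rule did not use, but no new Dev library. Only 17 of the 277 members (6.14%) overlapped one of its peaks by at least 1 bp, against 24.7% of all peaks. The matched members were the stronger ones, with a median of 111 normalized reads over the 9 libraries, against 42.4 in the unmatched. Its Dev column was the highest of the 3 at 15 of the 17, whereas it was the highest at 28.3% of the 17066 matched peaks; since that column holds the reads of Dev replicate 2, which helped to choose the members, this count is a description. The Dev value was above that of Pre-Dia replicate 1 at all 17, against 50.4% of all matched peaks. It was above that of Dia 1m replicate 1 at 15, against 51.2%. Both counts use the same Dev reads that helped to choose the members, so they are a description too. There was 1 library per stage and the table was normalized separately, so no test was made. Depth was also uneven, at 5.74 M reads in peaks for Dev, 1.00 M for Pre-Dia replicate 1 and 0.744 M for Dia 1m replicate 1. In the last of these, 1 read is worth 5.04 units.

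Among the matched members the gap between the Dev column and the other columns was wide at some peaks and small or reversed at others. At peak_19192 (NW_013952529.1:1298570-1299736) the smaller table had 94.1 in Dev, 18.7 in Pre-Dia replicate 1 and 5.04, which is 1 read, in Dia 1m replicate 1. At peak_2483, the strongest member in Dev by its mean, it had 449.9 in Dev, 147 in Pre-Dia and 116 in Dia 1m. The other 3 of the 5 with the widest gap, peak_20014, peak_15455 and peak_2469, had Dev above the higher of the other libraries by 1.95, 1.72 and 1.61 on the log2 scale. At the other end, peak_32892 (NW_013952717.1:422535-422966) had 30.9 in Dev, 26.7 in Pre-Dia and 5.04 in Dia 1m. At peak_21003 it had 64.5 in Dev, 40.0 in Pre-Dia and 75.6 in Dia 1m, and at peak_13433 (NW_013952475.1:159223-159722) 81.5 in Dev, 26.7 in Pre-Dia and 101 in Dia 1m. The new Dia 1m library was therefore above the Dev value at peak_21003 and peak_13433, and peak_21003 shared only 217 bp with the smaller table's peak.

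The difference between the 2 libraries that the rule did not use, Dia 1m replicate 1 minus Pre-Dia replicate 1, had a median of -0.55 over the 17 matched members, against -0.0094 over all 17066 matched peaks. At 5 of the 17 members at least 1 library was at its lowest value. Without those 5 the median was -0.15, against 0.041 over the 16340 matched peaks above the lowest value in all 3 libraries.

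**Figure D5:**
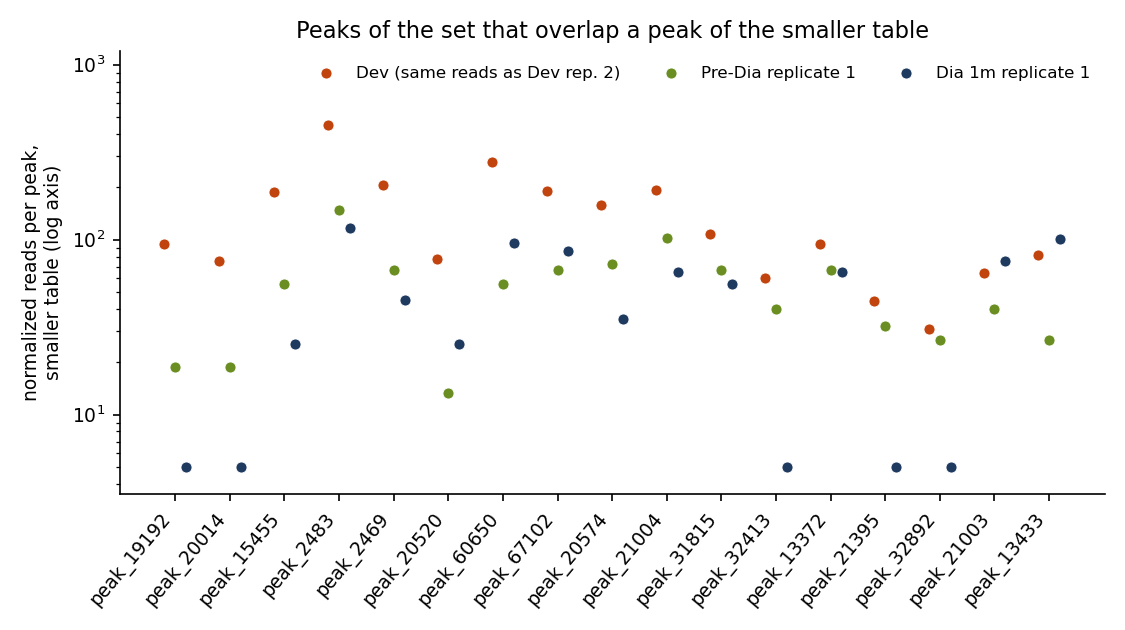
Normalized reads on a log axis in the smaller table at the 17 members that overlap one of its peaks, with 1 point for the Dev column, which repeats Dev replicate 2, 1 for Pre-Dia replicate 1 and 1 for Dia 1m replicate 1. The Dev point is the highest at 15 peaks, and the Dia 1m point is above it at peak_21003 and peak_13433.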

How the data were processed

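By the study's methods and the labels, the authors trimmed reads with Trim Galore 0.4.1, aligned them with Bowtie2 2.2.5, marked duplicates with Picard 2.22.1, removed these and poorly mapped reads with SAMtools 1.5, shifted reads for the Tn5 cut with deepTools 3.2.1, called peaks with MACS2 2.1.1.20160309 and merged peaks into consensus lists, of which this species has 2 (68977 and 17343 peaks). The deposited signal is named RPKM, but 100.0% of its values in the larger table came out as whole reads (tolerance 0.01 reads) scaled by a factor of the library, and peak width did not enter. Dia 1m replicate 3 also came out as whole reads at this tolerance, but it was left out of the count tests. The 9 libraries were fitted in limma 3.58.1 (R 4.3.3) on log2(value + 1), with 4 groups, a trended prior and no filter, at an adjusted p of 0.05; this understates changes of weak peaks. The code was tested on simulated data. Alternatives were pseudocounts of 0.5 and 5, a mean of at least 20, quantile normalization, edgeR 4.0.16 and DESeq2 1.42.0 on recovered reads of 8 libraries, the groups compared alone, the replicate block and leaving out each library. The named peaks are the 10 with the largest margins, the 5 highest in Dev, 5 on each side of the threshold, those past it between other stages, those at the ends of the smaller table's order and those of the 2 densest windows of 20 kb. The members and lists were chosen with earlier results of these data known. In the smaller table, 3 columns were used, and the Dev one had been planned as a library the rule did not use. A further 4 columns of the larger table, which repeat values of the smaller one and do not line up with its coordinates, were not used. Genes and sequence content, planned only where a genome and annotation would allow it, were not analysed here.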

Additional observations from a re-analysis of the deposited data

How the results depend on the processing

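Counts of the 277 peaks past the threshold were small and moved with the processing. In Dia 6d against Pre-Dia the count of 4 was 1 in a fit of the 2 groups alone, 0 to 19 with a library left out, and 2 among the 234 members with over 3 reads in every library, a choice made after seeing the data. In Dia 1m against Pre-Dia, and in Dia 1m against Dia 6d, the count of 0 was 2 and 1 by edgeR, and 0 to 9 and 0 to 2 with a library left out. The count of 14 in all 3 Dev contrasts was 26 with a pseudocount of 5, 54 by edgeR, 22 by DESeq2, 37 in fits of 2 groups alone and 0 to 67 with a library left out. Over all peaks, the count in all 3 Dev contrasts was 26 with the pseudocount of 5 and 40 in the fits of 2 groups alone. In the fits of 2 groups alone, peaks outside the set therefore passed too. With the replicate number as a block, 0 members passed in Dia 6d against Pre-Dia and 1 in all 3 Dev contrasts. Nothing says whether the numbers pair the samples. The deviations of 8 same-numbered pairs correlated at -0.17 to 0.18, over 0.1 in 1 pair. In a group of 2 libraries the deviations mirror each other, so these values are not independent and cannot settle the pairing. Where a group was left with 1 library, it was assumed to vary like the others. This held for Dia 1m in the edgeR and DESeq2 fits, which lacked replicate 3. In their counts the tool and the missing library cannot be told apart. The set held 31 peaks at a margin of 1.5 and 237 to 865 with a library left out, at least 152 of them shared. Of 89 such values under alternatives, 62 were close to the reported one, meaning counts within 1.5 times of it. For the share with Dev highest in the smaller table, close meant inside an exact binomial interval, which treats the matched members as independent. For the median of the nearest peaks, it meant a shift below the SD between the Dev libraries. By these rules that share and that median were among the close ones. So were many counts of 0 that stayed 0, whereas the count of 14 moved under most alternatives. The margins of the 41 named peaks, which had to be near or above 1 to be named, moved to between 0.36 and 1.52 times the reported value over 492 cases, and those of the named members were under the step of 1 in 52 of 432 cases, with a lowest of 0.50. Over all peaks, the 2377 higher and 957 lower in Dia 6d than in Pre-Dia were 92 and 21 with the block, and 1746 and 698 in a fit of the 2 groups alone. The 19 and 14 in Dia 1m against Dia 6d were 36 and 31 with the block, and 115 and 30 in a fit of the 2 groups alone. Causes were not tested. Depth limits the values of a few reads, above all in Pre-Dia replicate 1.5 among the 9 libraries, and more so in the Pre-Dia and Dia 1m libraries of the smaller table.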
